A study of Mesocricetus auratus with 6 samples.

Results

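The respiratory chain and the ATP synthase were followed through 66 subunit genes in day 5 uterus of pregnant Syrian golden hamsters, at and between the sites where blastocysts implant. Members were all genes whose platform symbol starts with NDUFA, NDUFB, NDUFC, NDUFS, NDUFV, SDHA to SDHD, UQCR, CYC1, COX4 to COX8, ATP5F, ATP5M or ATP5P. This rule found 75 of the 11963 genes tested and 109 of the 22215 probe sets. Of the 75 genes, 28 encode subunits of complex I, 3 of complex II, 7 of complex III, 13 of complex IV and 15 of complex V. The other 9 share only the start of a symbol: 7 are assembly factors of complexes I and II, and 2 are an antisense RNA and a pseudogene.

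Tissue of implantation sites, labelled as uterus with an embryo implantation site, was set against tissue of interimplantation sites, labelled as non-embryo uterus of the same day. Each group had 3 arrays described as biological replicates, and the animals received no treatment. The design text speaks of 3 animals, but no label ties an array to an animal, so the p-values below cover only the spread among arrays, which may be partly technical. Biotin-labelled hamster RNA was read on an Affymetrix array with human probes, so a probe set can bind its hamster transcript well, weakly or not at all. Values are log2 brightness after RMA, a method that brings the single probes of all arrays to the same distribution. The deposited probe set values did not share it exactly, with array medians of 4.18 to 4.20. Levels of different genes are not comparable on such probes, while differences of the same probe set between groups are.

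Complex I (NADH dehydrogenase) and complex II (succinate dehydrogenase) pass electrons to ubiquinone, complex III (cytochrome bc1) passes them on to cytochrome c, and complex IV (cytochrome c oxidase) hands them to oxygen. Complexes I, III and IV pump protons across the inner mitochondrial membrane, and complex V, the ATP synthase, lets them flow back through a rotating ring of c subunits and makes ATP. All genes studied here lie in the nucleus, and outside complex II their products join subunits encoded by mitochondrial DNA. The pregnant uterus draws ATP from this chain and from glycolysis, and stroma that turns into decidua is known for a high use of glucose.

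Arrays correlated at 0.989 to 0.995 within groups and 0.985 to 0.992 between groups. The stromal collagen gene COL1A1, with means of 10.42 in implantation and 9.85 in interimplantation sites, was bright in both groups. Markers of trophoblast and embryo (6 measured) averaged at most 4.25 in implantation and 4.23 in interimplantation arrays. The median of all probe sets was 4.19. Since levels of different genes are not comparable here, these values do not show how much embryo the tissue held. Markers of smooth muscle (10 measured) averaged 5.17 to 5.195 in implantation and 5.32 to 5.44 in interimplantation sites. In the test over all genes, at an adjusted p under 0.05, 3 of the 10 fell. Of all genes 0.460% fell and 0.777% rose at that threshold. Another 4 of the 10 muscle markers had a difference above 0, among them ACTA2 at 0.15 without overlap. The median over the 10 was −0.01. Epithelial markers (10 measured) averaged 4.195 to 4.28 in implantation and 4.34 to 4.38 in interimplantation sites. With an unadjusted p below 0.05, 3 of the 10 were lower (30%, all genes 5.22%). Endothelial markers (9 measured, 0 past that p) averaged 4.24 to 4.27 in implantation and 4.32 to 4.37 in interimplantation sites. Erythroid markers (5 measured, 2 lower at that p, all genes 5.22%) averaged 5.76 to 5.79 in implantation and 5.88 to 5.89 in interimplantation sites. A difference above 0 was found in 2 epithelial markers, 1 endothelial and 1 erythroid marker, the last being SLC4A1 at 0.16. Leukocyte markers (8 measured, of which SPI1 fell) averaged 4.51 to 4.58 in implantation and 4.57 to 4.59 in interimplantation sites. Stromal markers (8 measured, of which COL1A1 rose and PDGFRA fell) averaged 6.88 to 6.91 in implantation and 6.79 to 6.99 in interimplantation sites. For RNA quality, the 3′ minus the 5′ actin control read −2.08 ± 0.22 in implantation sites and −1.70 ± 0.15 in interimplantation sites (SD of log2 values, n = 3 arrays each; p = 0.1 by an exact permutation test, which can go no lower). The same difference for GAPDH read −0.20 ± 0.16 in implantation sites and 0.13 ± 0.17 in interimplantation sites (p = 0.2 by the exact permutation test). The part of these shifts in the results below was not tested. In such tissue pieces fewer cells of a type and less RNA per cell cannot be told apart.

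None of the 66 subunit genes passed limma's test over all genes, at an adjusted p under 0.05. Over all genes tested, 0.777% passed as higher and 0.460% as lower in implantation sites. With no adjustment, at p under 0.05, 6 subunit genes (9.09%) were higher and 1 (1.52%) lower, where all genes gave 5.68% and 5.22%. The 6 were ATP5MC3, ATP5MC1, NDUFAB1, NDUFS6, NDUFA9 and UQCRC1, and the lower gene was COX6B1. The median difference over the subunits was 0.05, against −0.01 over all genes, and 57.6% of the subunits had a difference above 0, against 47.6% of all genes. All implantation arrays lay above all interimplantation arrays in 8 subunit genes (12.1%; all genes 8.36%) and below them in 4 (6.06%; all genes 8.09%). The shares of higher subunits were somewhat above those of all genes and the shares of lower ones below, and no test of the list as a whole was made. Of the 109 member probe sets 0 passed in either direction, where 0.702% of all probe sets passed as higher and 0.356% as lower. At an unadjusted p under 0.05 they counted 8 higher and 2 lower, against 5.27% and 5.23% of all probe sets, and 53.2% had a difference above 0, against 46.4%.

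The differences in probe set signal were small as well as short of the threshold. Human probes may bind a hamster transcript weakly or not at all, so the intervals below do not bound the change in RNA. For 65 of the 66 subunits the 95% interval of the difference lay within a 1.5-fold change in either direction, and for all 66 within 2-fold; over all genes, 97.5% and 99.6% did. The exception at 1.5-fold was ATP5MC3, whose interval reached 0.62 on the log2 scale. The lowest bound of any subunit was −0.39. For 42 of the 66 (63.6%) the interval lay within 1.25-fold, a lower share than the 71.3% of all genes.

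**Figure D1:**
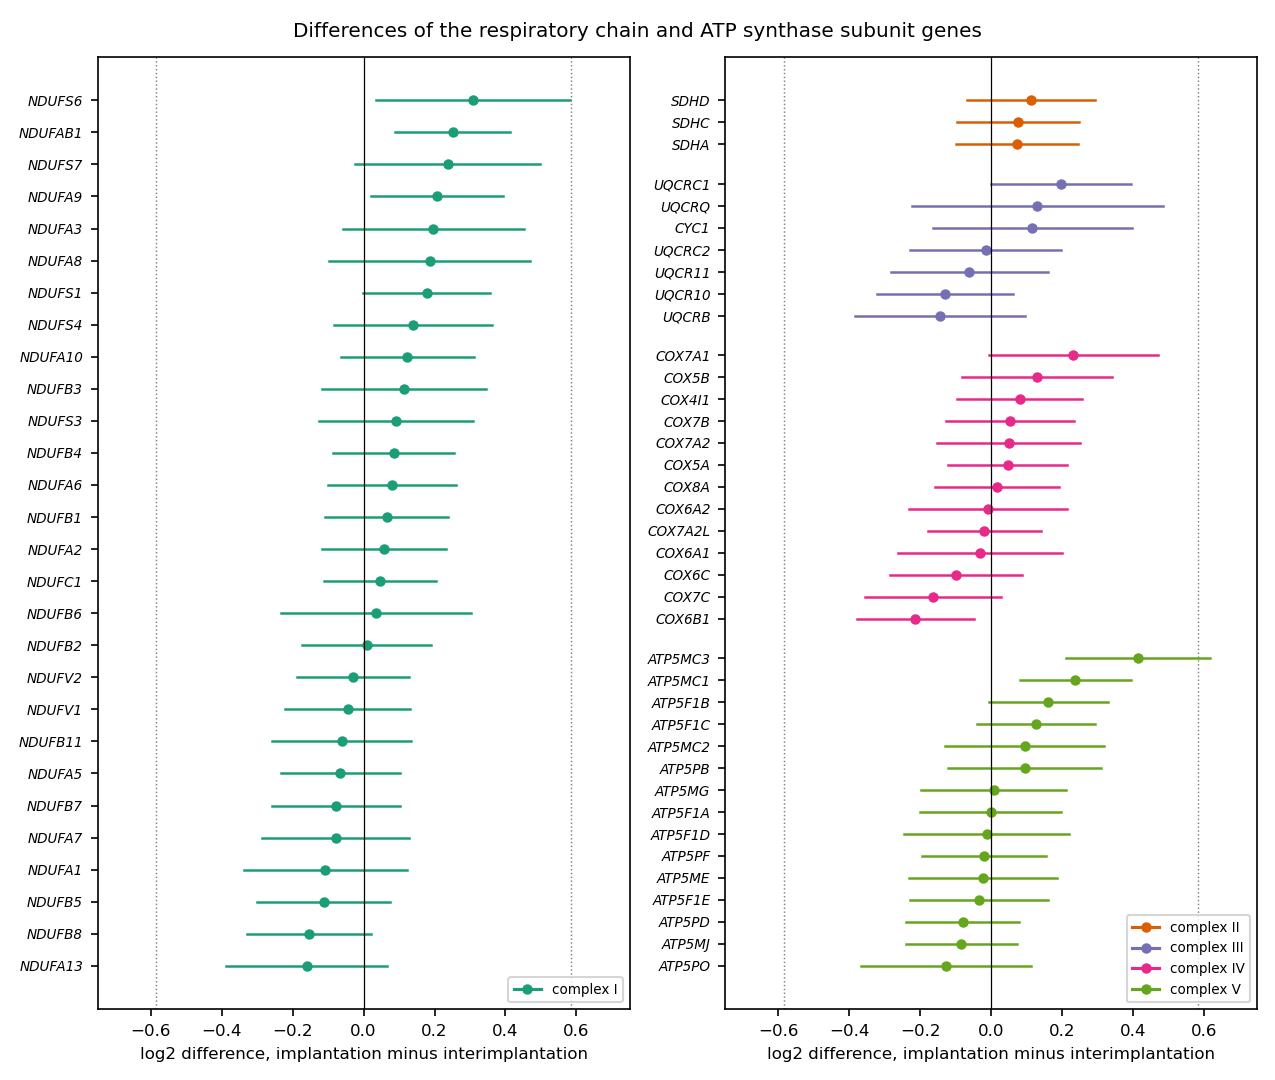
Log2 difference, implantation minus interimplantation, of each of the 66 subunit genes at its brightest probe set, by complex and by size. Points are estimates and bars 95% intervals of limma's fit, and dotted lines mark a 1.5-fold change. ATP5MC3 at 0.41 stands at the upper end and COX6B1 at −0.21 at the lower end, and most bars cross 0.

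The ATP synthase held the subunit with the smallest p, ATP5MC3. The median difference was 0.24 over the 3 genes of its c ring and −0.00094 over the 5 of the catalytic part F1. It was −0.02 over the 7 genes of the peripheral stalk and small membrane subunits. ATP5MC1, ATP5MC2 and ATP5MC3 encode the same mature c subunit with different import sequences. ATP5MC3 read 8.63, 8.55 and 8.52 in the implantation arrays, against 7.996, 8.33 and 8.13 in the interimplantation arrays. The groups did not overlap, and the implantation arrays lay closer together. The difference was 0.41 ± 0.09 (log2, SE), or 1.33-fold, with an adjusted p of 0.0563. A second probe set of ATP5MC3, with a mean of 4.84, differed by 0.03. ATP5MC3 did pass when genes below the median brightness were left out of the test (adjusted p = 0.0454), but not when only those below the first quartile were (0.0535). It also passed without interimplantation array 2 (0.0283). Without interimplantation array 1 its difference was 0.34, with an adjusted p of 0.139, and with the mean of both probe sets it was 0.22 (adjusted p = 0.258). When quantile normalization was repeated on the deposited values, the ATP5MC3 difference was 0.30 (adjusted p = 0.178).

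ATP5MC1 read 6.97, 6.96 and 6.95 in implantation and 6.72, 6.68 and 6.77 in interimplantation arrays. Its groups were far apart for their spread, yet the difference was 0.24 ± 0.07 (log2, SE; adjusted p = 0.189). ATP5MC2 read 5.78, 6.05 and 6.07 in implantation and 5.99, 5.93 and 5.70 in interimplantation arrays. These values overlapped (log2 difference 0.09 ± 0.10 SE, adjusted p = 0.812), with implantation array 1 below 2 of the interimplantation arrays. No difference between the 3 genes was tested.

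Of the 5 genes of the catalytic part F1, the beta and gamma subunits had all implantation arrays above all interimplantation arrays (40%, all genes 8.36%). ATP5F1B, the beta subunit that makes ATP, read 7.09, 6.95 and 7.09 in implantation and 6.84, 6.89 and 6.92 in interimplantation arrays (log2 difference 0.16 ± 0.08 SE, adjusted p = 0.478). ATP5F1C, the gamma subunit of the rotating shaft, read 6.57, 6.67 and 6.57 in implantation and 6.45, 6.55 and 6.43 in interimplantation arrays (log2 difference 0.13 ± 0.08 SE). Of its 4 probe sets 3 had differences of 0.13 to 0.17 and the dimmest was at −0.05. ATP5F1A, the alpha subunit that alternates with beta in the head, averaged 5.70 ± 0.17 in implantation and 5.70 ± 0.04 in interimplantation sites (SD, n = 3 each), and its 95% interval ran from −0.20 to 0.20. ATP5F1D (delta) and ATP5F1E (epsilon) differed by −0.01 and −0.03.

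ATP5PO, ATP5PB, ATP5PD and ATP5PF form the peripheral stalk, and ATP5ME, ATP5MG and ATP5MJ are small membrane subunits. Of these 7 genes 5 had a difference below 0, with a lowest value of −0.13 in ATP5PO and a highest of 0.09 in ATP5PB. ATP5MJ read 4.85, 4.79 and 4.86 in implantation and 4.93, 4.91 and 4.90 in interimplantation arrays. ATP5PD read 4.47, 4.48 and 4.46 in implantation and 4.61, 4.49 and 4.55 in interimplantation arrays. In both genes every implantation array was below every interimplantation array, by small steps (log2 differences −0.08 ± 0.07 and −0.08 ± 0.07 SE, adjusted p = 0.742 and 0.767). They made up 28.6% of the 7 genes, where 8.09% of all genes lay so.

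**Figure D2:**
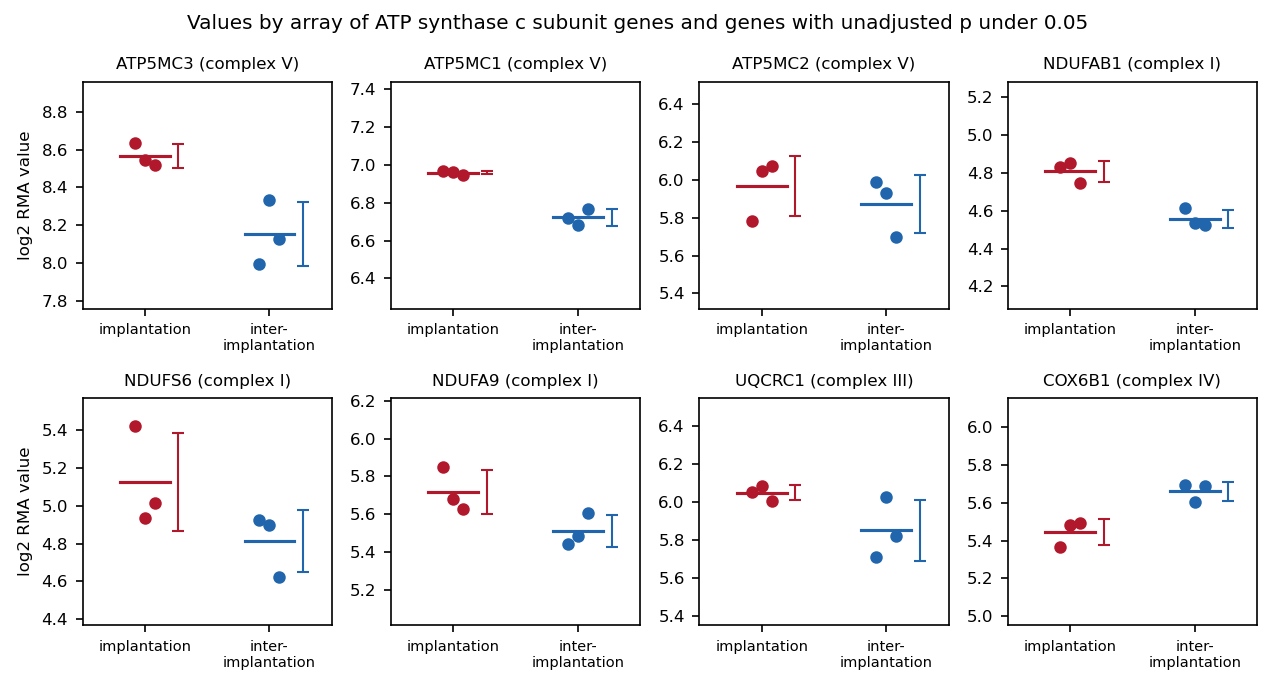
Log2 RMA value in each array (points), with the group mean (line) and SD (bar, n = 3), for the 3 c subunit genes and for the subunit genes with an unadjusted p under 0.05. Every panel spans the same range of log2 values. Implantation arrays lie above interimplantation arrays in ATP5MC3, ATP5MC1, NDUFAB1, NDUFS6 and NDUFA9 and below them in COX6B1, and the groups overlap in ATP5MC2 and UQCRC1.

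In complex I, 18 of its 28 genes had a difference above 0 (64.3%; all genes 47.6%), with a median of 0.06. Of the 28 genes 3 were higher (10.7%; all genes 5.68%) and 0 lower (all genes 5.22%) with an unadjusted p below 0.05. NDUFAB1, the mitochondrial acyl carrier protein that is also a subunit of the complex, read 4.83, 4.85 and 4.75 in implantation and 4.61, 4.54 and 4.52 in interimplantation arrays. The groups were clearly apart (log2 difference 0.25 ± 0.07 SE, adjusted p = 0.174). NDUFS6, a zinc-binding subunit of the arm that oxidises NADH, read 5.42, 4.94 and 5.02 in implantation and 4.92, 4.90 and 4.63 in interimplantation arrays. Its difference was 0.31 ± 0.13 (log2, SE; adjusted p = 0.372), with implantation array 1 far above the rest; without that array it was 0.16.

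NDUFA9, which sits where the arms of complex I meet, read 5.85, 5.68 and 5.63 in implantation and 5.44, 5.48 and 5.61 in interimplantation arrays. The groups did not overlap, but their nearest arrays were almost level (log2 difference 0.21 ± 0.09 SE, adjusted p = 0.381). NDUFS1, the largest subunit and a carrier of iron-sulphur clusters, read 5.69, 5.56 and 5.59 in implantation and 5.42, 5.55 and 5.34 in interimplantation arrays. It was likewise without overlap (log2 difference 0.18 ± 0.08 SE, adjusted p = 0.468). NDUFS7 and NDUFS3, core subunits near the quinone site, differed by 0.24 ± 0.12 and 0.09 ± 0.10 (SE), with overlapping groups.

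NDUFV1 and NDUFV2 lie where NADH is oxidised. NDUFV1, which binds the flavin, averaged 4.99 ± 0.05 in implantation and 5.04 ± 0.10 in interimplantation sites (SD, n = 3 each; log2 difference −0.04 ± 0.08 SE). NDUFV2 differed by −0.03 ± 0.07 (SE). Neither was tested against the other subunits of the complex. The medians were 0.14 over the 7 NDUFS and NDUFV genes, 0.08 over the 11 NDUFA genes and 0.02 over the 10 NDUFB and NDUFC genes, most of which belong to the membrane arm. NDUFB8 had the lowest difference in complex I among genes at or above the median brightness. It read 5.28, 5.09 and 5.18 in implantation and 5.29, 5.41 and 5.31 in interimplantation arrays, with implantation array 1 just under the lowest interimplantation array (log2 difference −0.15 ± 0.08 SE, adjusted p = 0.524). NDUFA1, a small membrane subunit, was at −0.11 ± 0.10 (SE) with overlapping groups, and NDUFB2, the brightest gene of the complex, at 0.01 ± 0.08 (SE).

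In complex II all 3 measured genes had small differences above 0. SDHA, the flavoprotein that oxidises succinate, read 6.18, 6.13 and 6.08 in implantation and 5.95, 6.13 and 6.10 in interimplantation arrays. SDHC, a membrane anchor, read 5.81, 5.92 and 5.91 in implantation and 5.80, 5.89 and 5.72 in interimplantation arrays. SDHD, the other anchor, read 5.18, 5.27 and 5.32 in implantation and 5.22, 5.02 and 5.20 in interimplantation arrays. The groups overlapped in each, and the differences were 0.07 ± 0.08, 0.08 ± 0.08 and 0.11 ± 0.08 (log2, SE; adjusted p = 0.812, 0.802 and 0.691). All 4 probe sets of SDHC and both of SDHD were above 0. The largest difference was 0.27 ± 0.09 (SE, adjusted p over probe sets 0.256), at a dimmer SDHC probe set that read 4.91, 5.18 and 5.10 in implantation and 4.73, 4.87 and 4.78 in interimplantation arrays.

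Of the 7 genes of complex III, 1 was higher at an unadjusted p under 0.05 (14.3%; all genes 5.68%) and 0 lower (all genes 5.22%). Its interimplantation arrays spread widely. UQCRC1, a core protein of the matrix side, read 6.05, 6.09 and 6.01 in implantation and 5.71, 6.03 and 5.82 in interimplantation arrays. Interimplantation array 2 lay within the implantation range, and the difference was 0.20 ± 0.09 (log2, SE; adjusted p = 0.454), or 0.13 without interimplantation array 1. UQCRC2, its partner, was at −0.01 ± 0.10 (SE). CYC1, the cytochrome c1 that hands electrons to cytochrome c, read 4.44, 4.62 and 4.82 in implantation and 4.23, 4.56 and 4.74 in interimplantation arrays. The spread within either group was larger than the difference of 0.12 ± 0.13 (SE). UQCRQ, a small subunit, varied more still, with 3.45 to 3.998 in implantation and 3.26 to 3.91 in interimplantation sites. UQCRB, which helps to bind quinone, read 4.25, 4.55 and 4.70 in implantation and 4.52, 4.70 and 4.71 in interimplantation arrays. Its groups overlapped (log2 difference −0.14 ± 0.11 SE, adjusted p = 0.705), and UQCR10 was at −0.13 ± 0.09 (SE).

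Complex IV held the subunit with the lowest difference, COX6B1, and 2 pairs of tissue isoforms. COX6B1, a subunit on the side of the intermembrane space, read 5.37, 5.48 and 5.49 in implantation and 5.69, 5.60 and 5.69 in interimplantation arrays. Every implantation array was below every interimplantation array (log2 difference −0.21 ± 0.08 SE, 1.16-fold lower, adjusted p = 0.280). COX7A1, the isoform typical of heart and skeletal muscle, read 5.04, 4.58 and 4.83 in implantation and 4.51, 4.69 and 4.57 in interimplantation arrays, with overlap at implantation array 2 (log2 difference 0.23 ± 0.11 SE, adjusted p = 0.472). The COX7A1 difference was 0.12 without implantation array 1 and 0.35 without implantation array 2. COX7A2, the isoform found in most tissues, read 3.08, 2.93 and 2.96 in implantation and 2.84, 3.12 and 2.85 in interimplantation arrays, near the dim end of the array (log2 difference 0.05 ± 0.09 SE). COX7A2L, a related protein that joins complexes III and IV, read 5.89, 5.79 and 5.84 in implantation and 5.88, 5.87 and 5.83 in interimplantation arrays, at a difference of −0.02 ± 0.07 (SE).

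For the other isoform pair, COX6A1, found in most tissues, read 5.75, 5.85 and 5.76 in implantation and 5.56, 6.003 and 5.89 in interimplantation arrays. COX6A2, its counterpart in striated muscle, read 4.41, 4.35 and 4.42 in implantation and 4.16, 4.49 and 4.56 in interimplantation arrays. In both genes the implantation arrays lay inside the range of the interimplantation arrays, with differences of −0.03 ± 0.11 and −0.01 ± 0.10 (log2, SE). COX8A, the brightest gene of complex IV, read 7.04, 6.83 and 6.91 in implantation and 6.89, 6.92 and 6.93 in interimplantation arrays (log2 difference 0.02 ± 0.08 SE).

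COX4I1, a regulatory subunit that binds ATP, read 6.85, 6.68 and 6.76 in implantation and 6.77, 6.602 and 6.67 in interimplantation arrays. Its difference was 0.08 ± 0.08 (SE) at the brightest probe set and −0.08 and −0.13 at the other probe sets. COX5A and COX5B, structural subunits, were at 0.05 ± 0.08 and 0.13 ± 0.10 (SE), and COX6C and COX7C, small membrane subunits, at −0.10 ± 0.09 and −0.16 ± 0.09 (SE). SDHB, UQCRFS1, COX4I2, COX6B2 and COX8C were not analysed here.

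Several probe sets read 21 of the 66 subunit genes. All of a gene's probe sets had differences above 0 in 5 genes and below 0 in 6, and they lay on both sides of 0 in 10. In none of the 21 did probe sets differ in opposite directions with an unadjusted p under 0.05 each. In 9 subunit genes the brightest probe set was of the type that can bind related transcripts: ATP5F1C, ATP5F1D, ATP5ME, ATP5MG, COX4I1, COX7C, SDHA, SDHC and UQCRB.

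**Figure D3:**
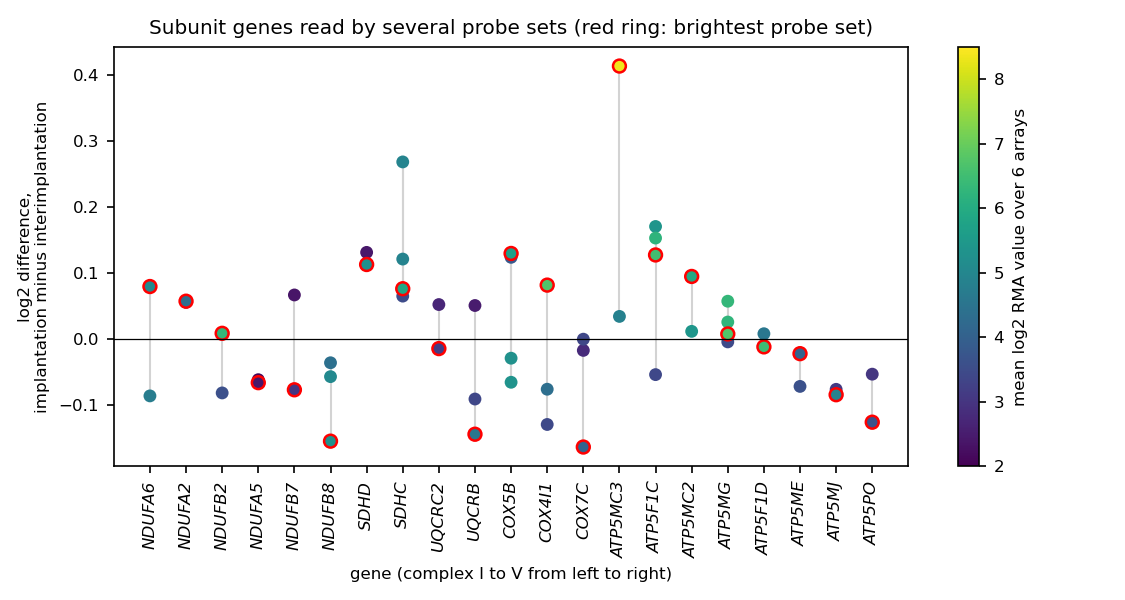
Log2 difference, implantation minus interimplantation, at each probe set of the 21 subunit genes read by several probe sets. Colour gives the mean log2 RMA value over 6 arrays, and a red ring marks the brightest probe set. The probe sets of ATP5MC3 are the farthest apart, at 0.41 and 0.03, and those of SDHC are all above 0.

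Across arrays, the groups overlapped in the subunits as a whole. The medians below spread more among interimplantation arrays (SD 0.04) than among implantation arrays (SD 0.02). Each array's median deviation of the 66 genes from their means over 6 arrays was 0.02, 0.03 and −0.01 in implantation and −0.05, 0.02 and −0.02 in interimplantation arrays. Interimplantation array 2 lay among the implantation arrays. Interimplantation array 1 held the lowest of the 6 values in 24 of the 66 genes, and implantation array 1 the highest in 20. In complex III the deviation was −0.15 in interimplantation array 1 and 0.09 in interimplantation array 2, with 0.01, 0.06 and 0.06 in the implantation arrays between them. Without interimplantation array 1 the median difference over all 75 members was 0.01, and without interimplantation array 2 it was 0.06, against 0.04 with all arrays. The numbers of genes at an unadjusted p under 0.05 without interimplantation array 1 were 5 higher and 4 lower of the 75, against 7 and 2 with all arrays.

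**Figure D4:**
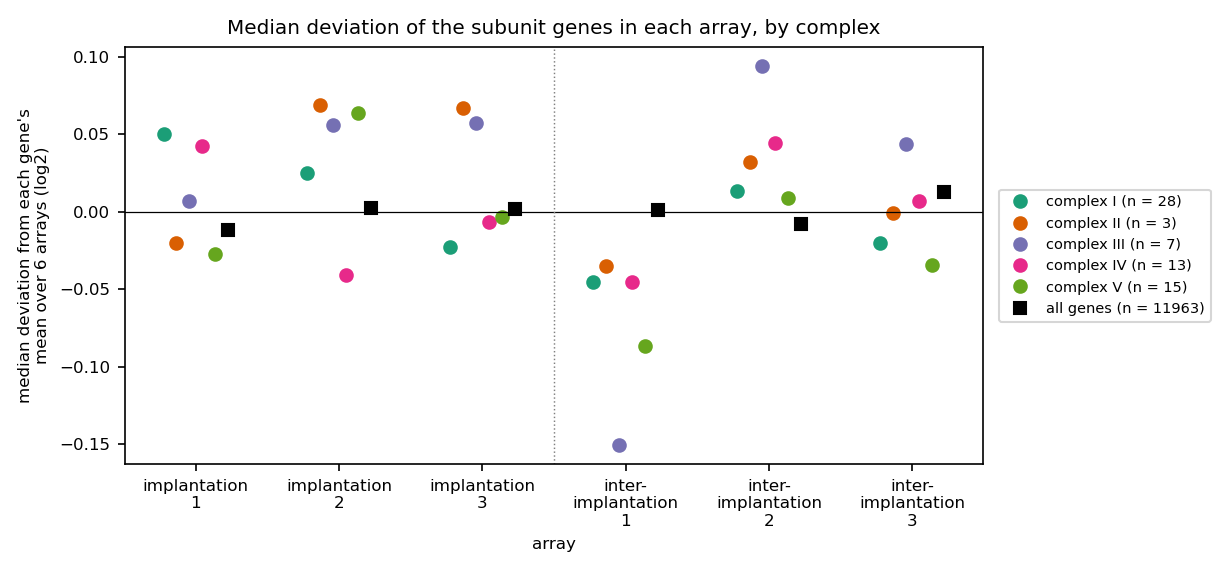
Median deviation from each gene's mean over 6 arrays (log2), by array, for the subunit genes of each complex (circles) and for all genes (squares). The circles of implantation and interimplantation arrays overlap in every complex, with interimplantation array 1 lowest, at −0.15 for complex III.

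Split by brightness, of the 66 subunit genes 42 were as bright as the median probe set or brighter. Among them 6 were higher and 1 lower with an unadjusted p below 0.05, where all genes of that brightness gave 6.87% higher and 6.10% lower, and the median difference was 0.07. The 24 dimmer subunits had 0 past that p in either direction, where all dimmer genes gave 3.84% each way, and a median of 0.01. Over all genes the median was −0.01 at or above that brightness and −0.01 below it.

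The assembly factors that share the symbol prefixes showed no common direction. NDUFAF1, which helps to build complex I, read 5.04, 4.89 and 4.95 in implantation and 4.79, 4.53 and 4.80 in interimplantation arrays. NDUFAF7, which methylates a core subunit, was dim, at 2.07, 2.13 and 2.03 in implantation and 2.33, 2.28 and 2.32 in interimplantation arrays. They lay on opposite sides, at 0.25 ± 0.09 and −0.23 ± 0.07 (log2, SE; adjusted p = 0.293 and 0.205), and without interimplantation array 2 NDUFAF1 was at 0.16. The other 5 differed by −0.06 to 0.08. The antisense RNA NDUFB2-AS1 was at 0.04 and the pseudogene ATP5MC2P1 at −0.02.

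Of other mitochondrial genes, a carrier that supplies the ATP synthase with ADP was among the few that passed. SLC25A5, an ADP/ATP carrier, read 7.81, 7.81 and 7.81 in implantation and 7.37, 7.53 and 7.25 in interimplantation arrays. It rose by 0.43 ± 0.08 (log2, SE; adjusted p = 0.0310), but no longer passed when any array other than interimplantation array 2 was left out, with adjusted p of 0.0680 to 0.127. It was the only 1 of 18 measured carriers, porins and creatine kinases to pass, and their median was −0.01. At an unadjusted p under 0.05, 1 other was lower, UCP2, an uncoupling protein, at −0.18 ± 0.08 (SE). SLC25A4, another ADP/ATP carrier, was at 0.17 ± 0.09 (SE, adjusted p = 0.543) with overlapping groups. HSPD1, the chaperonin that folds imported proteins, rose by 0.85 ± 0.09 (log2, SE; adjusted p = 0.000847), as the only 1 of 36 measured genes of import and inner membrane organisation. Of those 36, 6 were higher (16.7%; all genes 5.68%) and 0 lower (all genes 5.22%) with an unadjusted p below 0.05, and the median was 0.07. TOMM70, an import receptor, was next at 0.41 ± 0.10 (SE, adjusted p = 0.0801). The other 4 were HSPE1, the partner of HSPD1, at 0.23, APOO at 0.22, TIMM13 at 0.21 and SAMM50 at 0.18 (log2 differences, adjusted p of 0.303 to 0.437).

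In the other lists 0 genes passed in limma's test, and their counts with an unadjusted p below 0.05 stand against 5.68% higher and 5.22% lower over all genes. Of 19 electron carriers and entry enzymes, 2 were higher (10.5%) and 1 lower (5.26%) at that p. AIFM1, a flavoprotein needed for complex I, had the smallest p (log2 difference 0.31 ± 0.07 SE, adjusted p = 0.0699), followed by DHODH of pyrimidine synthesis (0.24 ± 0.08 SE). The lower gene was ETFA, of the flavoprotein that takes electrons from fatty acid oxidation, at −0.30 ± 0.13 (SE, adjusted p = 0.412) with overlapping groups. Cytochrome c itself, CYCS, was dim and averaged 2.46 in implantation and 2.45 in interimplantation sites. Of 10 assembly genes of complexes II, III and V, 1 was higher and 0 lower, BCS1L of complex III (0.31 ± 0.08 SE, adjusted p = 0.102), with UQCC1 next at 0.16. Of 12 assembly genes of complex IV, 0 were higher and 1 lower, COA4 (−0.20 ± 0.09 SE), with SURF1 next at −0.15. Of 11 assembly genes of complex I, 1 was higher and 1 lower, the NDUFAF1 and NDUFAF7 described above.

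Among 17 genes of the tricarboxylic acid cycle 1 was higher and 1 lower at that p: DLD, shared by several dehydrogenases, at 0.28 ± 0.11 and IDH3B, of isocitrate dehydrogenase, at −0.23 ± 0.09 (log2, SE). Without interimplantation array 3 DLD was at 0.17. Among 27 genes of mitochondrial DNA, transcription and biogenesis 0 were higher and 3 lower (11.1%; all genes 5.22%). TFAM, which packages and transcribes mitochondrial DNA, was at −0.28 ± 0.09 and TFB2M, its partner at promoters, at −0.25 ± 0.09 (log2, SE; adjusted p = 0.225 and 0.267). The third was NFE2L2, a transcription factor of the oxidative stress response, at −0.22 ± 0.09 (SE). The other probe sets of TFAM were at −0.15 and 0.09. NRF1, a transcription factor of many respiratory genes, and PPARGC1A, its coactivator, differed by −0.03 and −0.02. Of 8 antioxidant enzymes 0 were higher and 1 lower, GPX1 at −0.33 ± 0.14 (SE), with GLRX5 next at 0.11. Without interimplantation array 2 GPX1 was at −0.18, and without interimplantation array 3 at −0.49.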

How the data were processed

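Total RNA from hamster uterus was hybridised to a human Affymetrix array, 6 arrays in all. The submitters' processing notes name RMA and Partek 6.6 for the log2 values that the authors deposited. RMA settings and the log's base were not found in those notes; values ran from 1.65 to 12.08 and were read as log2. Of 22283 probe sets 68 controls were left out. Platform annotation gave 1 gene to 19065 probe sets, several to 1043 and none to 2107. Each gene was read at its brightest probe set (highest mean of 6 arrays). The test was limma 3.58.1 under R 4.3.3 (lmFit, eBayes, 2 groups, two-sided, Benjamini-Hochberg over all genes or probe sets, threshold 0.05). The median SE over genes was 0.086, and the number of arrays limits the precision.

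The members and lists were chosen with earlier results of these data known. The text names, per complex, genes with an unadjusted p under 0.05, the largest rises and falls, the brightest genes, core subunits and isoforms, and per further list the smallest p; other genes named were chosen after their values were seen. The fit was tested on simulated data with known changes. Alternatives were other choices of probe set, brightness filters, renormalization, array weights, replicate blocks and leaving out each array.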

Additional observations from a re-analysis of the deposited data

How the results depend on the processing

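With all 6 arrays and no filter 0 of the 75 member genes and 0 of the 109 member probe sets passed as higher or lower. The count of higher genes was 1, ATP5MC3, among genes at or above the median brightness and with the replicate number as a random block (adjusted p = 0.0474). The count of higher probe sets was 1 with the same filter. Leaving out single arrays gave 0 to 1 higher and 0 lower, for genes and for probe sets, with the 1 found without interimplantation array 2. The median difference of the members was 0.04; it was 0.065 at or above the median brightness, where 44 members remained, and 0.01 to 0.06 when single arrays were left out. Whether the replicate numbers shared by the groups pair the arrays is not stated in the labels. Deviations of arrays of the same number correlated at 0.056, 0.00014 and 0.063, those of different numbers at −0.073 to 0.029. These values are small and do not settle the pairing. With the replicate number as a fixed replicate block the median was 0.04 and 0 genes passed, and no call of a member changed. Of 608 differences of 34 named members under 18 settings, 602 stayed short of the threshold and kept their sign, or changed it by less than the replicate SD. Where the sign was kept, the size of a move was not judged: ATP5MC3 at 0.22, as a mean over probe sets, counts among the 602. Another 3, all of ATP5MC3, passed. The remaining 3 changed sign by more than the replicate SD. Here COX4I1 gave −0.04 as a mean over probe sets, −0.13 at the most variable and −0.08 without probe sets that can bind related transcripts. In 28 of the 608 the sign changed, all with an unadjusted p at or above 0.05. Counting NDUFA4 with complex IV was not run, since NDUFA4 was not analysed here. For SLC25A5, the adjusted p was 0.0225 without interimplantation array 2 and 0.0680 to 0.127 without each of the other arrays. The cause of these changes was not tested.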

Other observations

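A further 10 probe sets were annotated to several genes, at least 1 of which has a symbol of these families, and were left out of the members. Over all probe sets 0 of the 10 passed limma's test (lowest adjusted p 0.287). At an unadjusted p under 0.05, 1 of the 10 was higher and 2 were lower in implantation sites, where all probe sets gave 5.27% and 5.23%. Their differences ran from −0.27 to 0.20 on the log2 scale. The 2 lower were annotated to UQCRHL and UQCRH, at −0.27, and to RPL10 and NDUFS5, at −0.21. The higher was annotated to NDUFS8, MIR7113 and MIR4691, at 0.20, and a dimmer probe set of the same genes was at −0.07.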
